A study of Mus musculus with 18 samples.

Results

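Deletion of ERα was examined in bone marrow macrophages (BMMs), the osteoclast progenitors, before any exposure to RANKL. The comparison set the 3 ERαΔLysM BMM arrays against the 3 ERα f/f BMM arrays, which are 6 of the 18 arrays of the series. The labels give the ERαΔLysM genotype as ERalphaf/f;LysM-Cre, with the title Era-, and the other as ERalphaf/f control, both on the C57BL/6 strain background. Both groups therefore carry the floxed ERα alleles, and only the first carries Cre, expressed from regulatory elements of the lysozyme M gene, so that an effect of Cre itself and of the deletion cannot be told apart. BMMs of both genotypes were grown from bone marrow in 30 ng/ml M-CSF for 4 days, with 0 days of RANKL. The mice were 2 to 3 months old and the controls were littermates. Cells for the arrays received estradiol (E2) for 4 h, a treatment that all groups shared and the labels do not mention, and no array of cells without E2 was analysed here. BMMs were obtained from 3 mice per genotype, but the labels do not tie each array to a mouse. P values therefore measure the spread between these samples, which may be technical.

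ERα is a ligand-activated transcription factor of the nuclear receptor family. It binds estrogen response elements, which are palindromes of a short half-site, and it also acts through other DNA-bound factors. Osteoclasts, the cells that resorb bone, form when M-CSF keeps macrophage progenitors alive and RANKL, binding its receptor RANK, drives their fusion and the expression of bone-degrading enzymes. LysM-Cre is active in cells of the monocyte, macrophage and neutrophil lineages.

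The arrays read the level of a transcript as fluorescence on beads, and values are given on the log2 scale of the normalized signal, where a difference of 1 is a 2-fold change. A probe was tested when its signal was above the negative control beads, at a detection p under 0.05, on at least 3 of the 6 BMM arrays. This kept 11666 of 25697 probes, which represent 7936 genes. Replicates 1 and 2 of the ERαΔLysM BMMs were dim before normalization, with median signals of 129.7 and 133.5, while replicate 3 was at 176.5 and the ERα f/f BMMs were at 165.0, 190.8 and 168.2. ERαΔLysM BMM arrays detected 11389 to 11570 probes and ERα f/f BMM arrays 11686 to 12031. The part of this difference in brightness in the results was not tested beyond the values given here. The cells carried the macrophage markers, with Adgre1, a surface receptor gene, at 13.11, 13.05 and 12.85 in ERαΔLysM and 13.11, 13.21 and 13.31 in ERα f/f BMMs. Cx3cr1, the fractalkine receptor gene, was at 12.16, 12.11 and 12.17 in ERαΔLysM and 12.35, 12.41 and 12.40 in ERα f/f BMMs. Of the 16 macrophage markers on the array, Msr1 and Ccr2 were not detected on any of the 6 arrays. Of the 14 tested, 6 were higher and 8 lower in ERαΔLysM BMMs, with a median log2 difference of −0.09. Among the higher ones were Mrc1 (0.49) and Siglec1 (0.42).

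The deletion could not be read from the transcript of the targeted gene. The Esr1 probes were not above background on any BMM array, with values of 4.65, 4.56 and 4.50 in ERαΔLysM and 4.49, 4.43 and 4.52 in ERα f/f BMMs for one probe and 4.42, 4.94 and 4.67 against 4.84, 4.85 and 4.66 for the other. The 3 probes for Esr2, which encodes ERβ, and the probe for Gper1, a membrane estrogen receptor gene, were not above background on any BMM array either. Lyz2, the locus that carries the Cre, was near the top of the range, with 14.79, 14.72 and 14.86 in ERαΔLysM and 14.71, 14.51 and 14.66 in ERα f/f BMMs. Its difference of 0.17 did not pass the test (adjusted p = 0.496), its other probes had 0.16 and −0.56 (adjusted p = 0.623 and 0.28), and its near-identical copy Lyz1 may share signal with it. Xist, which is expressed from the inactive X chromosome, lay at 9.57, 9.61 and 9.77 in ERαΔLysM and 9.39, 9.44 and 9.81 in ERα f/f BMMs. A second and dimmer Xist probe read 7.96, 8.10 and 8.10 against 7.51, 7.69 and 7.76, without overlap (difference 0.40, adjusted p = 0.24). The Y-linked genes Eif2s3y and Kdm5d were not above background on any of the 6 arrays, while Uty, close to background, was detected on 0 ERαΔLysM and 3 ERα f/f arrays.

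With limma and a threshold of 0.05 on the adjusted p, 63 probes differed between the genotypes, which is 0.54% of the probes tested. Of these, 44 were lower (0.377% of the probes tested) and 19 were higher (0.163%) in ERαΔLysM BMMs, and they stand for 59 named genes and 2 probes without a gene symbol. Counted by gene at the brightest probe, 45 of 7936 genes passed (0.567%), of which 15 were higher (0.189%) and 30 lower (0.378%). The differences ran from −1.38 to 1.01, and the largest, in ILMN_1238547, was 2.61-fold, while none was smaller than 0.45 in either direction. For all 63 the 3 arrays of a genotype lay on one side of the other 3, which held for 25.2% of all tested probes (12.4% with the ERαΔLysM arrays higher and 12.9% with them lower). The calls leaned to the dim end: 18 of the 1891 probes with a mean level of 4 to 6 were called (0.952%), of which 16 were lower, while of the 899 probes at 12 to 16 only Rab32 and Tgm2 were called. The filter could be met by the ERα f/f arrays alone, and 9 of the lower calls were detected on no ERαΔLysM array. The lean to lower calls at the dim end therefore cannot be told apart from the filter. Of the calls detected on all 6 arrays, 17 were higher and 28 lower. The plot of differences against level shows where the calls lie. At an unadjusted p under 0.05, 1782 probes differed (15.3%). Of all tested probes, 50.7% had a difference below 0.

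**Figure D1:**
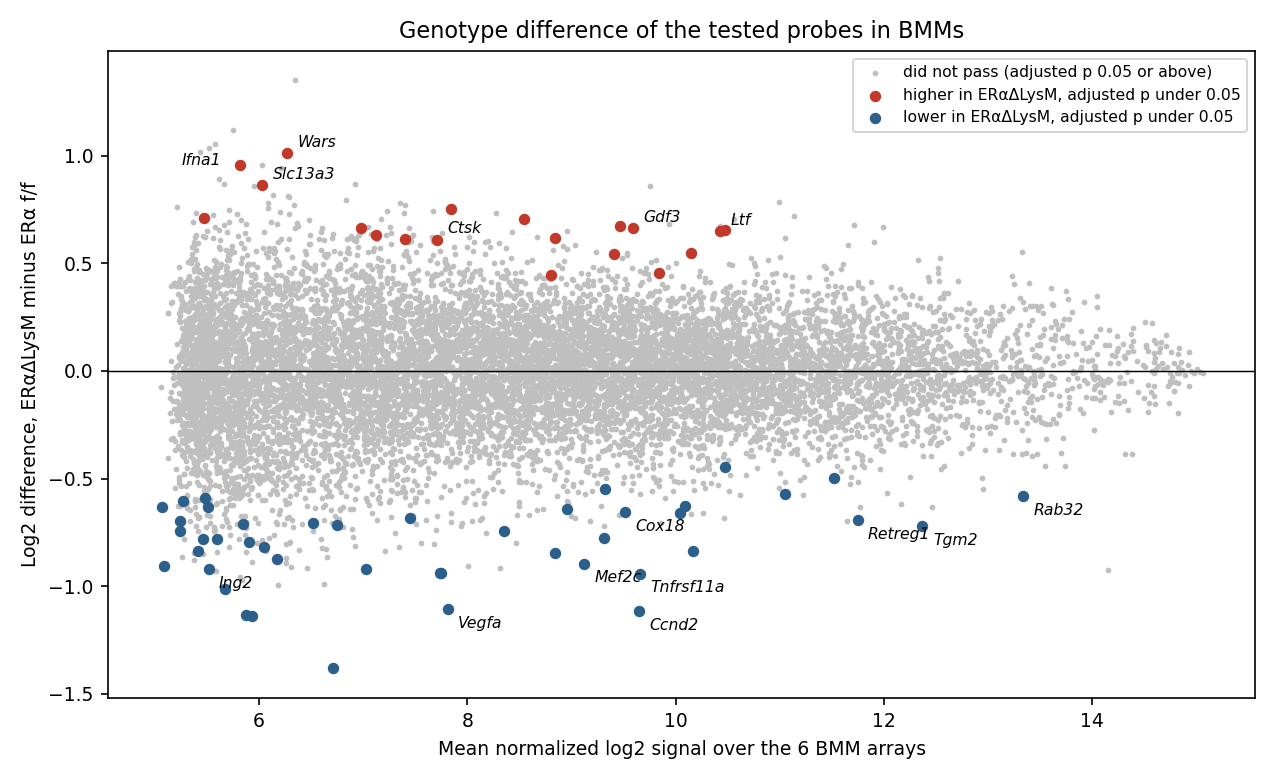
Log2 difference between ERαΔLysM and ERα f/f BMMs (y axis) against the mean log2 signal over the 6 BMM arrays (x axis), 1 point per tested probe. The 63 probes past the threshold are coloured, 19 above and 44 below 0, and the spread of all probes narrows with the level.

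How many probes passed depended on single arrays. Without the 2 dim ERαΔLysM arrays 1 probe passed, that of Ccnd2, and in a fit of the 6 BMM arrays alone 0 passed. Leaving out ERαΔLysM replicates 1, 2 and 3 gave counts of 38, 4 and 14, and leaving out ERα f/f replicates 1, 2 and 3 gave 56, 6 and 7. The sizes were steadier than the calls. Without the dim arrays only replicate 3 of the ERαΔLysM BMMs remained, and the difference was 0.513 to 1.34 times that with them (median 0.983). All 63 probes kept their sign there, but this was fixed in advance, since the genotypes did not overlap for any of them. In every one of the 6 fits that left out an array, Ccnd2, Add3, the probe ILMN_2484527 of Vegfa and the unnamed probe ILMN_1238547 passed the test.

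The call with the lowest adjusted p was that of Ccnd2, which was lower in ERαΔLysM BMMs, and Vegfa was lower as well. Ccnd2 encodes cyclin D2, which drives entry into the cell cycle with its kinases. Its values were 9.26, 9.07 and 8.93 in ERαΔLysM and 10.12, 10.25 and 10.23 in ERα f/f BMMs. The ERαΔLysM arrays all lay below the others by more than the range within a genotype, and the difference was −1.12 (standard error 0.12, adjusted p = 0.0012), or 2.17-fold lower. It was the only one of 21 measured G1 cyclins, kinases and inhibitors that passed, and the list had a median difference of −0.06. Vegfa encodes the main angiogenic growth factor, which is induced by hypoxia. Its probe ILMN_2484527 read 7.18, 7.36 and 7.24 in ERαΔLysM and 8.36, 8.41 and 8.32 in ERα f/f BMMs, a difference of −1.11 (standard error 0.14, adjusted p = 0.00287). A second and dimmer probe, ILMN_3121255, read 5.48, 5.11 and 5.32 against 6.68, 6.31 and 6.32, a fitted difference of −1.13 (standard error 0.17, adjusted p = 0.0134). It was detected on only 1 of the 3 ERαΔLysM arrays, so that its size is measured against values mostly at background. The remaining probe was at background on all 6 arrays.

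Among 18 measured hypoxia response genes Vegfa alone passed, 6 genes lay above 0 and 12 below, and the median difference was −0.07. The next lowest was Ak4, an adenylate kinase gene (−0.37, adjusted p = 0.276), and the highest was Egln2, a prolyl hydroxylase gene of the oxygen-sensing pathway (0.71, adjusted p = 0.142). In the list of glycolysis and glucose uptake, Slc2a1, a glucose transporter gene, had −0.49 (adjusted p = 0.158), and 0 of 17 genes passed. Among growth factors, Gdf3, a ligand of the TGF-β family, was higher, with 9.91, 9.96 and 9.88 in ERαΔLysM against 9.34, 9.15 and 9.28 in ERα f/f BMMs (difference 0.66, standard error 0.12, adjusted p = 0.0277). Kitl, which encodes stem cell factor, was not above background on the 3 ERαΔLysM arrays, at 5.27, 5.02 and 5.30, and was detected on all ERα f/f arrays at 5.96, 5.82 and 5.71. It was at least 1.35-fold lower (adjusted p = 0.0276), where the bound sets the ERα f/f mean against the detection limit of the ERαΔLysM arrays.

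**Figure D2:**
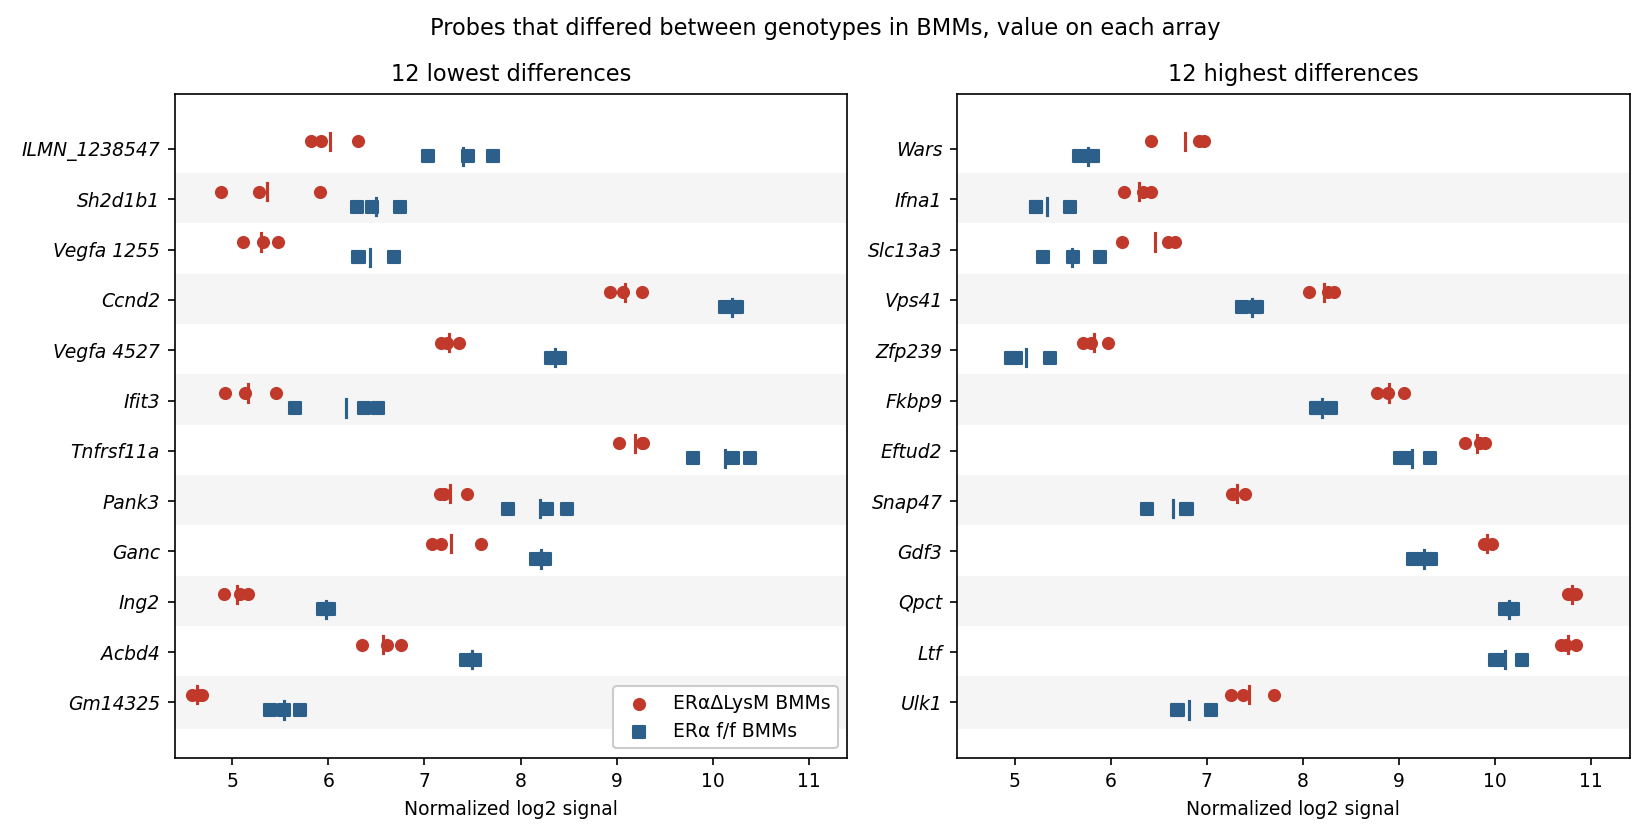
Normalized log2 signal (x axis) on each of the 3 ERαΔLysM (circles) and 3 ERα f/f (squares) BMM arrays for the 12 lowest and the 12 highest differences past the threshold, with a vertical line at each mean. The groups do not overlap in any row, and the distance between their means is largest for ILMN_1238547 among the lower probes and for Wars among the higher ones.

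In the pathway that RANKL uses, the receptor gene was lower while a target gene was higher. Tnfrsf11a encodes RANK. It was at 9.28, 9.26 and 9.03 in ERαΔLysM and 9.80, 10.38 and 10.21 in ERα f/f BMMs, a difference of −0.94 (standard error 0.18, adjusted p = 0.036). Replicate 1 of the ERα f/f BMMs was the nearest to the ERαΔLysM arrays. The difference stayed between −1.11 and −0.82 when any 1 array was left out, and it passed in 1 of these 6 fits, the one without that array. No other of the 19 measured genes of RANK and NF-κB signalling passed, and the next largest differences were in Traf1, which encodes an adaptor of TNF receptors (−0.81, adjusted p = 0.0545), and Traf2 (−0.56, adjusted p = 0.318). Ctsk, the gene of cathepsin K, with which osteoclasts digest bone collagen, read 8.22, 7.94 and 7.88 in ERαΔLysM and 7.46, 7.37 and 7.38 in ERα f/f BMMs, a difference of 0.61 (standard error 0.11, adjusted p = 0.0223). Replicate 1 of the ERαΔLysM BMMs, 1 of the dim arrays, was the highest, and without the dim arrays the difference was 0.47. Of 9 measured osteoclast markers 8 were above 0 and Ctsk alone passed, with a median of 0.28 against 0.00 for all genes, which became 0.13 without the dim arrays. The markers Calcr, Dcstamp, Ocstamp, Car2, Atp6v0d2 and Scin were not detected on any of the 6 arrays. Mef2c, a transcription factor gene of the MADS family, was lower with 1 probe, at 8.77, 8.85 and 8.40 in ERαΔLysM against 9.24, 9.77 and 9.69 in ERα f/f BMMs (adjusted p = 0.036), while its other probes had differences of −0.19 and −0.32 that did not pass (adjusted p = 0.458 and 0.333). Of 22 measured osteoclast transcription factors 0 passed at their brightest probe, and their median was −0.02.

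Immune genes moved in both directions. Sh2d1b1 encodes an adaptor of SLAM family receptors in natural killer and myeloid cells. It was at 5.28, 4.88 and 5.91 in ERαΔLysM and 6.30, 6.74 and 6.45 in ERα f/f BMMs, a difference of −1.14 (standard error 0.19, adjusted p = 0.0167), and without the dim arrays it was −0.58, where only ERαΔLysM replicate 3 remained. Sh2d1b1 and the called probes of Oasl1 and Ifit3 were each detected on 1 of the 3 ERαΔLysM arrays and on all ERα f/f arrays, so that the sizes of their differences rest on values mostly at background. Among 24 measured interferon-stimulated genes, 19 were below 0, with a median of −0.26, and 1 passed. This was Oasl1, an antiviral protein gene, at 5.25, 4.99 and 5.38 in ERαΔLysM against 6.11, 5.91 and 5.95 in ERα f/f BMMs (difference −0.78, adjusted p = 0.036). The list also held genes above 0, the largest being Bst2, which encodes tetherin (0.78, adjusted p = 0.141), and Ifi35 (0.54, adjusted p = 0.144). Ifit3 was lower with 1 probe, by −1.01 (adjusted p = 0.0371), and ERα f/f replicate 2 read lower than the other 2 control arrays with all 3 of its probes. For the other probes of Ifit3 the genotypes overlapped, with differences of −0.44 (adjusted p = 0.44) and −0.49 (adjusted p = 0.45). The gene of an interferon itself, Ifna1, was higher, with 6.14, 6.34 and 6.42 in ERαΔLysM and 5.22, 5.57 and 5.23 in ERα f/f BMMs (difference 0.96, adjusted p = 0.036). It was detected on 1 of the 3 ERα f/f arrays and belongs to a family of near-identical genes, so that the member read by the probe is uncertain.

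All 16 measured neutrophil markers lay above 0 in ERαΔLysM BMMs, with a median of 0.48, and 1 of them passed. This was Ltf, which encodes lactoferrin, the iron-binding protein of neutrophil granules, at 10.68, 10.74 and 10.84 in ERαΔLysM and 10.04, 9.99 and 10.28 in ERα f/f BMMs (difference 0.65, standard error 0.10, adjusted p = 0.0135). A second Ltf probe near background had a difference of 0.04. Ngp, a granule protein gene, had the largest difference of the list (0.86, adjusted p = 0.135), and S100a8 and S100a9, which encode the subunits of calprotectin, had 0.55 and 0.60 (adjusted p = 0.344 and 0.251). The summed linear signal of the 19 neutrophil markers on the array ran from 22815 to 25407 in ERαΔLysM and from 15822 to 17306 in ERα f/f BMMs, without overlap, and Mmp8, Cxcr2 and Padi4 were not detected on any of the 6 arrays. In bulk samples more cells of a type and more RNA per cell cannot be told apart. The part of this signal in the other genotype differences was not tested. The macrophage markers summed to between 32182 and 32575 in ERαΔLysM and between 33685 and 34707 in ERα f/f BMMs. A linear sum is weighted to the brightest genes. The mean log2 level of these markers overlapped, at 8.95 to 9.02 in ERαΔLysM and 9.01 to 9.05 in ERα f/f BMMs, and 6 of the 14 tested lay above 0. Summed markers also did not overlap for monocytes and dendritic cells (4119 to 4379 in ERαΔLysM against 2496 to 3396 in ERα f/f BMMs), B cells (987 to 1084 against 803 to 859), stromal cells and osteoblasts (412 to 414 against 358 to 390) and megakaryocytes (6019 to 6589 against 7393 to 8783). In the monocyte and dendritic list the largest difference was that of Bst2 (0.78, adjusted p = 0.141), and the median was 0.03. Of 3 tested megakaryocyte markers 2 lay above 0 and 1 below, with a median of 0.20. The mean log2 level of the megakaryocyte list overlapped, at 6.55 to 6.64 in ERαΔLysM and 6.53 to 6.59 in ERα f/f BMMs. The stromal and osteoblast markers averaged 4.91 to 4.96 in ERαΔLysM and 4.75 to 4.87 in ERα f/f BMMs. These averages lay below the lowest detected level of every array (5.26 to 5.42). For single probes the groups did not overlap in 25.2% of those tested. The part of these summed signals in the genotype differences was not tested either. Many defining markers of other lineages were undetected on all 6 arrays: 11 of 13 for T and natural killer cells, 7 of 16 for monocytes and dendritic cells, 5 of 9 for B cells, 5 of 8 for erythroid cells and 11 of 13 for stromal cells and osteoblasts, among them Cd79a, Cd3e, Flt3 and Col1a1.

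The promoters of called genes were read for the half-site of the estrogen response element, GGTCA, or its reverse complement TGACC, in the RefSeq windows of build GRCm38.p6 from 250 bases before to 50 bases after each start. Of the 59 genes, 49 had a window, and 22 of them (44.9%) held a half-site in at least 1 window, against 42.7% of 6578 tested genes and 43.6% of all 27025 genes. The share is near that of all genes and reads as no feature of the called genes. By window the shares were 41.8% of 67, 38.5% of 8452 and 40.5% of 32851. The full palindrome GGTCANNNTGACC was in 0 of the 49 called genes, 0 of the tested genes and 0.074% of all genes. Windows of Ltf, which is known as an estrogen-induced gene in the mouse uterus, and of Cav1 and Vegfa are printed since these genes stand for a higher and for lower calls with and without a half-site. The half-sites are in capitals, and each sequence runs in the direction of transcription.
Ltf (chr9:111019042-111019341, plus strand, half-site starting 45 bases before the start): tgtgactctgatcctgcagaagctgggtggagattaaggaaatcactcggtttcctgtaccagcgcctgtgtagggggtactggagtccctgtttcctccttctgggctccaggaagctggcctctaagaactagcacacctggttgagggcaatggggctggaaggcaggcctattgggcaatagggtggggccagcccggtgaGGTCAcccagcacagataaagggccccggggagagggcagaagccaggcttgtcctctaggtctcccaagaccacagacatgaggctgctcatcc
Cav1 (chr6:17307390-17307689, plus strand, the second of its starts): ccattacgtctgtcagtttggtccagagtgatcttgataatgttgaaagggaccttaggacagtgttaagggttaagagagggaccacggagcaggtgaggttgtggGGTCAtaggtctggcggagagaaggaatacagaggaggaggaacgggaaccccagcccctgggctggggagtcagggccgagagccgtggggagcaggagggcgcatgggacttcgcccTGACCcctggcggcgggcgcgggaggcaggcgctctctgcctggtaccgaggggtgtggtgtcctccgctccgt
Vegfa (chr17:46032328-46032627, minus strand, the upstream of its starts): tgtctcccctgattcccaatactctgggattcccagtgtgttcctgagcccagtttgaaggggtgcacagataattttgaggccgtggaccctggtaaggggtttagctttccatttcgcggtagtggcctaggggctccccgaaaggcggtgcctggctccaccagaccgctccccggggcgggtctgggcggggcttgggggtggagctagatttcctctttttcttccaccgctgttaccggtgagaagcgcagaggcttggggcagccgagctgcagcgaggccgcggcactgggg
The Vegfa window holds no half-site, and the other starts of Cav1 and Vegfa have windows with 0 and 1.

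In the respiratory chain, subunit genes of complex I lay above 0 and its assembly genes below 0, and no subunit passed the test. Of 32 measured subunits of complex I, which takes electrons from NADH, 27 were above 0, with a median of 0.22 against 0.00 for all genes, and 0 passed. The largest differences were in Ndufa5, at 12.32 ± 0.18 in ERαΔLysM and 11.65 ± 0.32 in ERα f/f BMMs (0.67, adjusted p = 0.32), Ndufa3 (0.47, adjusted p = 0.48) and Ndufb2 (0.46, adjusted p = 0.322). Subunits of complex IV and complex V had medians of 0.18 and 0.19, close to that of complex I, with 10 of 13 and 12 of 15 above 0, and 0 of either passed. Of 11 assembly factors of complex I, 10 were below 0, with a median of −0.24. Without the dim arrays the medians were 0.20, 0.23 and 0.19 for subunits of complexes I, IV and V and −0.17 for the assembly factors. With each array set to a common median they were −0.39, −0.41, −0.45 and −0.71, against −0.49 for all genes, so that the subunit lists lay nearer to all genes. Ndufaf4, 1 of these factors, was lower, at 9.94, 9.66 and 9.73 in ERαΔLysM and 10.20, 10.55 and 10.47 in ERα f/f BMMs (difference −0.63, standard error 0.12, adjusted p = 0.036). Cox18, which inserts a core subunit of complex IV into the inner membrane, was lower as well, at 9.12, 9.13 and 9.30 against 9.77, 9.91 and 9.83 (difference −0.66, standard error 0.11, adjusted p = 0.0208), and its second probe gave −0.51 (adjusted p = 0.0703). The difference of Cox18 was alike in pre-osteoclasts, at −0.71 (adjusted p = 0.0265), and it was −0.54 in mature osteoclasts (adjusted p = 0.118). Enzymes of the TCA cycle had a median of −0.01 and regulators of mitochondrial biogenesis one of −0.06, with 0 passing in either list.

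**Figure D3:**
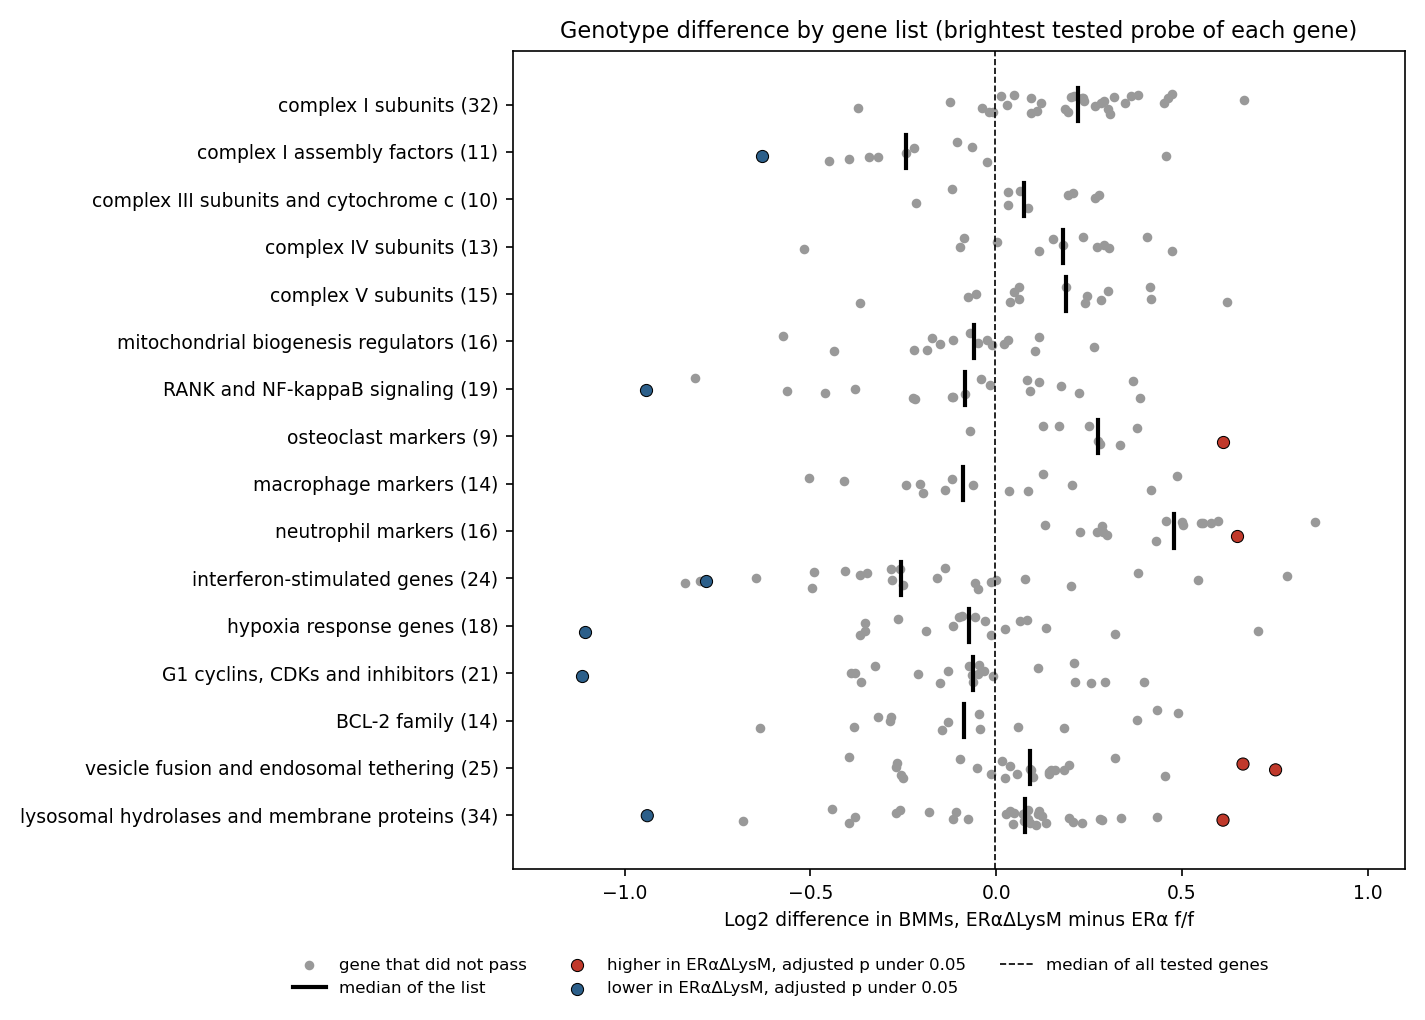
Log2 difference between ERαΔLysM and ERα f/f BMMs (x axis) for the measured genes of 16 lists (rows, with the number of genes), 1 point per gene at its brightest probe. Black bars are list medians and the dashed line is the median of all genes. Coloured points passed the test, and they are at most 2 in any list shown, while the neutrophil markers all lie to the right of 0.

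The other calls are ordered by the known role of the gene, a grouping made after the values were seen. Among genes of membrane traffic, Vps41, a subunit of the HOPS complex that tethers endosomes to lysosomes, was at 8.26, 8.33 and 8.07 in ERαΔLysM and 7.51, 7.52 and 7.37 in ERα f/f BMMs (difference 0.75, adjusted p = 0.0371), though a second and dimmer probe had −0.30 (adjusted p = 0.598). Snap47, a SNARE protein gene, was at 7.28, 7.27 and 7.40 against 6.78, 6.79 and 6.38 (difference 0.66, adjusted p = 0.0371). Of 25 measured genes of vesicle fusion and tethering these 2 passed, against 0.567% of all genes, with 17 above and 8 below 0. The list had a median of 0.09, and of −0.0062 without the dim arrays. Also higher were Hpse, the heparanase gene (0.61, adjusted p = 0.0371), Hvcn1, a proton channel gene that serves the oxidative burst (0.62, adjusted p = 0.036, with a second probe at 0.57 and adjusted p = 0.0861), and Ulk1, which encodes the kinase that starts autophagy (0.63, adjusted p = 0.0493). A second and dimmer Ulk1 probe had 0.19, with overlap between the genotypes (adjusted p = 0.837). Retreg1, a receptor for autophagy of the endoplasmic reticulum, was lower at a high level, with 11.66, 11.29 and 11.25 in ERαΔLysM against 11.91, 12.20 and 12.16 in ERα f/f BMMs (difference −0.69, standard error 0.12, adjusted p = 0.0223). Slc9a9, an endosomal sodium-proton exchanger gene, was lower by −0.68 (adjusted p = 0.041). Rab32 encodes a small GTPase of lysosome-related organelles and was the brightest of the called probes, at 13.16, 12.94 and 13.04 in ERαΔLysM and 13.42, 13.67 and 13.80 in ERα f/f BMMs (difference −0.58, adjusted p = 0.0371). It lies on chromosome 10 as does Esr1, as the 11th measured gene after it, and of the 3 measured genes before and 15 after Esr1 no other passed. Of the 15 measured genes on either side of Lyz2, 0 passed.

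Calls in genes of the endoplasmic reticulum and of protein glycosylation went both ways. Fkbp9, a prolyl isomerase of the endoplasmic reticulum, was at 9.05, 8.77 and 8.88 in ERαΔLysM and 8.14, 8.15 and 8.30 in ERα f/f BMMs (difference 0.70, adjusted p = 0.0179). Ganab, the catalytic subunit of glucosidase II, was higher with 1 probe (0.54, adjusted p = 0.036), while its others had 0.09 and 0.14. Srd5a3, which makes dolichol for glycosylation, was higher by 0.55 (standard error 0.09, adjusted p = 0.0166), and its other probes had 0.47 and 0.37 (adjusted p = 0.0815 and 0.142). Alg13, an enzyme of the lipid-linked sugar pathway, was lower by −0.82 (adjusted p = 0.0371). Outside this group, Ganc, a neutral α-glucosidase gene counted in the lysosomal list, was lower as well. It was at 7.59, 7.08 and 7.17 in ERαΔLysM against 8.26, 8.16 and 8.23 in ERα f/f BMMs (difference −0.94, standard error 0.16, adjusted p = 0.0179). Of 20 measured genes of the stress response and chaperones of the endoplasmic reticulum, Fkbp9 alone passed and the median was −0.01.

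The brightest of the other lower genes was Tgm2, which encodes the protein-crosslinking enzyme transglutaminase 2, at 12.11, 11.85 and 12.06 in ERαΔLysM and 12.58, 12.84 and 12.77 in ERα f/f BMMs (difference −0.72, standard error 0.11, adjusted p = 0.0134). Cav1, the caveolin gene, averaged 8.92 ± 0.10 (SD, n = 3) in ERαΔLysM BMMs against 9.70 ± 0.12 (SD, n = 3) in their ERα f/f counterparts (difference −0.78, standard error 0.14, adjusted p = 0.0277). Pank3, Acbd4, Insig2 and Hsd17b12 are lipid and coenzyme A genes with lower calls, grouped after the values were seen, while 0.378% of all genes were called lower. In the lists of fatty acid oxidation, cholesterol synthesis and cholesterol efflux, 0 genes passed at their brightest probe. Their medians were 0.03, 0.10 and 0.14. Pank3, a kinase of coenzyme A synthesis, was at 7.44, 7.20 and 7.16 in ERαΔLysM and 7.87, 8.48 and 8.28 in ERα f/f BMMs (difference −0.94, adjusted p = 0.041). Acbd4, an acyl-CoA-binding protein gene, was lower with both readable probes (−0.92 and −0.74, adjusted p = 0.0277 for each), Insig2, which holds SREBP in the endoplasmic reticulum, by −0.66 (adjusted p = 0.0371) and Hsd17b12, a reductase of fatty acid elongation that can also reduce estrone, by −0.50 (adjusted p = 0.0402). A brighter probe of Insig2 had a difference of 0.01 (adjusted p = 0.973). Among genes of RNA polymerase I, which transcribes ribosomal RNA, 1 probe each of Twistnb (−0.85, adjusted p = 0.0371) and Taf1d (−0.64, adjusted p = 0.0462) was lower, and their brighter probes had −0.48 (adjusted p = 0.207) and −0.41 (adjusted p = 0.197). Of 29 measured genes of ribosome biogenesis and RNA polymerase I, 0 passed at their brightest probe, 14 lay above and 15 below 0, the median was −0.04, and the highest was Ubtf, a factor of this polymerase (0.47, adjusted p = 0.156). The proteasome-bound deubiquitinase gene Uchl5 was lower with 1 of 3 probes (−0.84, adjusted p = 0.0277). Its brightest probe had −0.03 (adjusted p = 0.911) and the remaining one −0.56 (adjusted p = 0.135).

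Among the higher genes, Wars encodes the tryptophanyl-tRNA synthetase and had the largest difference. Its called probe read 6.42, 6.97 and 6.92 in ERαΔLysM and 5.81, 5.80 and 5.67 in ERα f/f BMMs (1.01, standard error 0.16, adjusted p = 0.0134). Its 3 other probes did not pass, and the brightest had a difference of 0.02 (adjusted p = 0.952). Slc13a3, a carrier of dicarboxylates such as succinate, was at 6.12, 6.59 and 6.67 in ERαΔLysM against 5.61, 5.30 and 5.89 in ERα f/f BMMs (difference 0.86, adjusted p = 0.0427). Eftud2, a GTPase of the spliceosome, was higher with 1 probe (0.67, standard error 0.11, adjusted p = 0.0135), and its others had 0.33 and 0.29 (adjusted p = 0.319 and 0.252). Qpct, which forms pyroglutamate at protein ends, was at 10.76, 10.84 and 10.80 against 10.10, 10.18 and 10.16, and differed by 0.66 (adjusted p = 0.0396). Zfp239, a zinc finger gene, was higher by 0.71 (adjusted p = 0.0453) and was detected on 1 of the 3 ERα f/f arrays.

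Of the 44 lower probes, 28 were detected on all 6 arrays and 9 on no ERαΔLysM array. Beside Kitl, these were Ing2, which reads histone methylation in a deacetylase complex and was at least 1.5-fold lower, Secisbp2l, at least 1.38-fold, Stac2, at least 1.35-fold, Rap1gap2, a Rap GTPase activator gene, at least 1.17-fold, Bid, at least 1.15-fold, Jmjd1c, a JmjC-domain protein gene, at least 1.13-fold, and Gm14325, at least 1.11-fold. No bound above 1 could be given for the olfactory receptor gene Olfr107. The brighter probe of Bid, whose protein links death receptors to mitochondria, had a difference of −0.32 (adjusted p = 0.322), and a brighter probe of Gm14325 had −0.15. Among 14 measured genes of the BCL-2 family and 18 of death receptors and caspases 0 passed at their brightest probe, with medians of −0.09 and −0.03. The largest differences there were in Pmaip1, which encodes the BH3-only protein NOXA (−0.64, adjusted p = 0.157), and Bcl2a1d (0.49, adjusted p = 0.386). The lowest difference of all was in ILMN_1238547, a probe with no gene symbol in the annotation used here, at 5.92, 5.82 and 6.31 in ERαΔLysM and 7.04, 7.71 and 7.45 in ERα f/f BMMs (−1.38, standard error 0.18, adjusted p = 0.00287).

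The genotype difference in BMMs was then set against that in pre-osteoclasts (2 days of RANKL) and mature osteoclasts (4 days), each with its own 3 arrays per genotype. It differed from the one in pre-osteoclasts for 4 probes (0.0343% of the probes tested) and from the one in mature osteoclasts for 6 (0.0514%), while at an unadjusted p under 0.05 the shares were 10.5% and 11%. Vegfa was in both sets. Its BMM difference of −1.11 stood against 0.20 in pre-osteoclasts (stage difference −1.31, standard error 0.20, adjusted p = 0.0475) and 0.14 in mature osteoclasts (stage difference −1.25, adjusted p = 0.0288). At these stages Vegfa was at 9.03 ± 0.21 in ERαΔLysM and 8.82 ± 0.28 in ERα f/f pre-osteoclasts and at 9.98 ± 0.18 and 9.84 ± 0.09 in the mature cells of the same genotypes (SD, n = 3 each), so that the genotypes overlapped there at a level above that of BMMs. Ccnd2 also differed from both later stages (−1.09, adjusted p = 0.0475, and −1.15, adjusted p = 0.0164), but it was not above background on any of the 12 later arrays, so that its difference there is one between background values. The same held for ILMN_1238547 (−1.70, adjusted p = 0.0164) and Add3, an adducin gene (−0.96, adjusted p = 0.0164), which differed from mature osteoclasts. Add3 had 5.55, 5.58 and 5.37 in ERαΔLysM and 6.20, 6.31 and 6.37 in ERα f/f BMMs, and its brighter probes had differences of −0.16 and −0.32 that did not pass (adjusted p = 0.579 and 0.281). Jmjd1c was lower in ERαΔLysM BMMs and lay 0.47 higher in ERαΔLysM pre-osteoclasts (adjusted p = 0.298 there, detected on 2 of 3 ERαΔLysM and 0 of 3 ERα f/f arrays), and the fitted stage difference was −1.08 (adjusted p = 0.0475). Since Jmjd1c was detected on 0 of 3 ERαΔLysM BMM arrays as well, this value is formed largely from background readings and its size is not exact. Arf2, a small GTPase gene of membrane traffic, stood out in another way: its difference in BMMs was 0.21 (adjusted p = 0.357), against 1.14 in pre-osteoclasts (adjusted p = 0.000141) and 1.12 in mature osteoclasts (adjusted p = 9.2e-05).

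**Figure D4:**
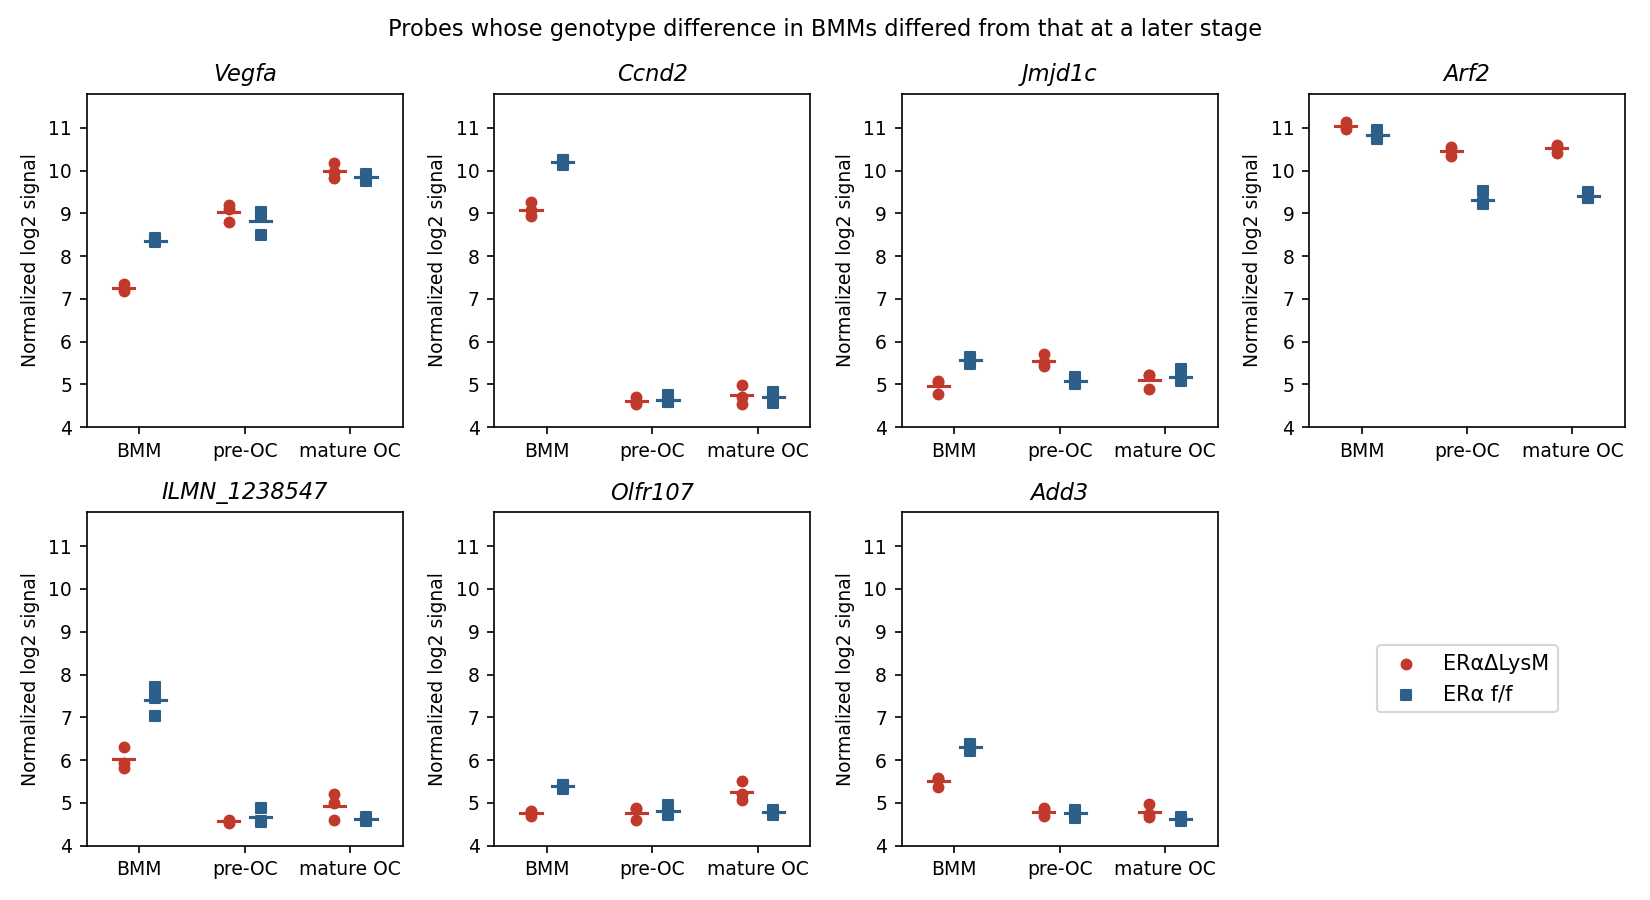
Normalized log2 signal (y axis) of the 7 probes whose genotype difference in BMMs differed from that in pre-osteoclasts (pre-OC) or mature osteoclasts (mature OC), with circles for the 3 ERαΔLysM and squares for the 3 ERα f/f arrays of each stage and bars at the means. For Vegfa the genotypes are apart in BMMs only. For Arf2 they do not overlap at any stage, and they are further apart after RANKL than in BMMs.

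Of the 44 probes that were lower in ERαΔLysM BMMs, 30 were below 0 in pre-osteoclasts and 21 in mature osteoclasts, with median differences of −0.05 and 0.01 against −0.76 in BMMs. Of the 19 higher probes, 16 and 15 were above 0 at these stages, with medians of 0.20 and 0.12 against 0.66 in BMMs. These probes were chosen for their difference in BMMs, which by itself makes the BMM medians larger than those at the other stages. The filter on detection also used BMM arrays only, and some of the probes, such as that of Ccnd2, were at background later. The medians therefore do not measure a change of the genotype difference with RANKL. Only 3 of the 63 passed in pre-osteoclasts as well, where 6 of the tested probes passed (0.0514%), and 2 in mature osteoclasts, where 13 passed (0.111%). In pre-osteoclasts these were Cox18, Ltf, at 0.67 (adjusted p = 0.0226), and the unnamed probe ILMN_2633062, at −0.84 (adjusted p = 0.0226) after −0.71 in BMMs. In mature osteoclasts they were 1 probe of Acbd4, at −0.95 (adjusted p = 0.0378), and Kitl, at −1.22 (adjusted p = 9.15e-05). Among the called probes, the difference between stages passed the test only for Ccnd2, Jmjd1c, Olfr107, Add3, ILMN_1238547 and the probe ILMN_2484527 of Vegfa. For the others it did not pass, which does not show that the genotype differences were equal.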

How the data were processed

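The authors hybridized total RNA to Illumina MouseRef-8 beadchips (version 1 per the study's text; the annotation used here is that of version 2) and deposited mean bead intensity values without normalization, each with a detection p-value against negative controls, and normalized log2 values, for which the study's text names lumi. The neqc method of limma (offset 16) on the deposited signals gave these log2 values to within 0.028 (median absolute difference 0.00044). Of 26529 features, 832 (3.14%) had no probe ID and were left out. The deposited log2 values were used as given, since each array kept the rank order of its own signals (Spearman correlation 1 on 18 of 18 arrays). A model with 1 mean for each of the 6 groups was fitted to 18 arrays with limma 3.58.1 in R 4.3.3 (functions lmFit and eBayes, with 12 degrees of freedom among arrays and 3.69 from the prior), with Benjamini-Hochberg adjustment over the 11666 tested probes and a threshold of 0.05. The median standard error was 0.159, and 3 arrays per group limit the precision. Of the tested probes 10999 had 1 gene symbol and 667 none. Detection limits for "at least" folds were, per array, the higher of the lowest detected signal and the probe's own. Each of the 65 gene lists was described by its brightest probe per gene, with no test. Full statistics were given for the 12 highest and 12 lowest called probes without overlap, and other called probes, list members with the largest differences and genes the study names were given more briefly. Members and lists were chosen with earlier results of these data known. The replicate numbers did not pair samples across genotypes (correlations of deviations −0.127, −0.013 and −0.017). The pipeline was tested on simulated data. Figures were drawn in Python 3.11.15 with pandas 2.3.3 and matplotlib 3.10.9.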

Additional observations from a re-analysis of the deposited data

Results flagged for a closer look

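The tests of the difference between stages flagged 7 probes, and the values are those of the genotype difference in BMMs minus the one at the later stage. Against pre-osteoclasts they were −1.31 for Vegfa, −1.09 for Ccnd2, −1.08 for Jmjd1c and −0.93 for Arf2. Against mature osteoclasts they were −1.70 for ILMN_1238547, −1.25 for Vegfa, −1.15 for Ccnd2, −1.11 for Olfr107, −0.96 for Add3 and −0.91 for Arf2. Of these, Vegfa and Arf2 were detected on all arrays of all 3 stages. The other 5 had at least 1 stage with no array of a genotype above background, so that their sizes are not exact. Olfr107 was detected on the 3 ERα f/f BMM arrays and on no other array. Groups of 3 arrays were too small to look for outlying samples.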

How the results depend on the processing

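The count of 63 probes moved by more than 1.5 times under most alternatives: to 191 without background correction, 1030 with each array set to a common median, 27 without a filter on detection, 0 with only the 6 BMM arrays (where 2217 had an unadjusted p under 0.05), 141 with a trended and robust prior, 441 with array weights, 15 with array brightness as a covariate, 26 with the replicate number as a replicate block over all 18 arrays, 0 with that replicate block over the 6 BMM arrays and 1 without the dim arrays. Leaving out 1 array gave 4 to 56. In the other alternatives it stayed within 1.5 times of 63; neqc on the scanner signals is no separate check, since it gives nearly the deposited values. With a common median the median difference of all tested probes was −0.47, so 1024 of the 1030 calls were lower, 0.583% higher against 30.2% with the values as deposited, and Trp53inp2 (−0.054), Fblim1 (−0.11) and Srd5a3 (−0.046) changed sign, while all 19 higher probes stayed above that median. The replicate numbers showed no pairing, and 25 of the 63 probes passed under the replicate block over all 18 arrays. Stage differences counted 4 against pre-osteoclasts (1 with a common median, 0 with array weights, 0 with the replicate block, 0 with the brightness covariate, 0 to 2 leaving out 1 array) and 6 against mature osteoclasts (11 with the trended prior, 20 with array weights, 0 with the replicate block, 0 to 7 leaving out 1 array). Of 65 gene lists, 6 with at least 5 genes had medians over 0.2 from that of all genes, and 3 to 7 did so leaving out 1 array. Across all alternatives the called probes kept their sign but for those 3, and in 677 cases a probe and an alternative gave the same sign without passing the threshold. Where arrays were left out the sign could not change, since the genotypes did not overlap for these probes.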
